A study of Mus musculus with 3 samples.

Results

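Immune checkpoints are pairs of a receptor on a lymphocyte and a ligand on the cell it meets. Described here are 10 genes of this kind, 5 receptors and 5 ligands, chosen by name from the 32285 genes counted in every library. The receptors were Pdcd1 (PD-1; ENSMUSG00000026285), Ctla4 (ENSMUSG00000026011), Lag3 (ENSMUSG00000030124), Havcr2 (TIM-3; ENSMUSG00000020399) and Tigit (ENSMUSG00000071552). The ligands were Cd274 (PD-L1; ENSMUSG00000016496), Pdcd1lg2 (PD-L2; ENSMUSG00000016498), Cd80 (ENSMUSG00000075122), Cd86 (ENSMUSG00000022901) and Lgals9 (galectin-9; ENSMUSG00000001123). Each symbol had 1 row in the deposited counts. Immune cells were taken from mouse hearts by a flow cytometry sort on CD45, the surface protein shared by leukocytes, and their RNA was counted cell by cell with 10x Genomics chemistry that reads the 3′ end of transcripts. There were 3 libraries, 1 for each of the groups labelled Sham, MI (myocardial infarction) and MI-E. All came from C57BL/6J mice labelled as 8-9 weeks old. The labels do not say what the E in MI-E stands for, how long after surgery hearts were taken or how many hearts went into a library. They also attach the same surgical text, a ligation of the left anterior descending coronary artery, to all 3 libraries, Sham included.

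PD-1 and CTLA-4 are brakes on T cells. PD-1 is engaged by PD-L1 and PD-L2, while CTLA-4 competes with the activating receptor CD28 for CD80 and CD86 on antigen-presenting cells. LAG-3 binds MHC class II, TIM-3 has galectin-9 among its described ligands, and TIGIT competes with the activating receptor CD226 for CD155. T cells gain several of these receptors on activation, regulatory T cells carry CTLA-4 constitutively, and TIM-3 is also a receptor of macrophages and dendritic cells. PD-L1 is inducible by interferon in many cell types, whereas CD86 is constitutive on many macrophages, dendritic cells and B cells.

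Sham, MI and MI-E held 11357, 9095 and 12707 barcodes, of which 10079, 8169 and 11989 were kept. Depth differed, with a median of 2825, 9460.0 and 7409 unique molecular identifiers (UMIs, 1 per captured transcript) per kept cell. Levels are therefore given as CPM, the UMIs of a gene scaled to a total of 1000000 UMIs in the cell type, with a 95% exact Poisson interval. Ratios carry the exact 95% interval of a ratio of Poisson counts. These intervals carry the error of counting alone. A single library per group allows no test of a condition, and the differences below are differences between these libraries. From 26 to 45 barcodes were shared by each pair of libraries. Cells were grouped into 25 clusters without using the 10 genes, and the composition differed widely. Monocytes and macrophages were 38.3%, 83.6% and 58.0% of the kept cells, and B cells 29.4%, 0.575% and 2.65%. T cells numbered 713, 73 and 269. MI held only 47 B cells and 37 NK cells, for which counts alone are given. Despite the CD45 sort, a fibroblast cluster, red blood cells and a cluster led by the endothelial genes Fabp4, Ly6c1, Egfl7 and Cdh5 were present. The last was left unnamed, as it scored 1, the highest value, for both the endothelial and the cardiomyocyte markers.

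**Figure D1:**
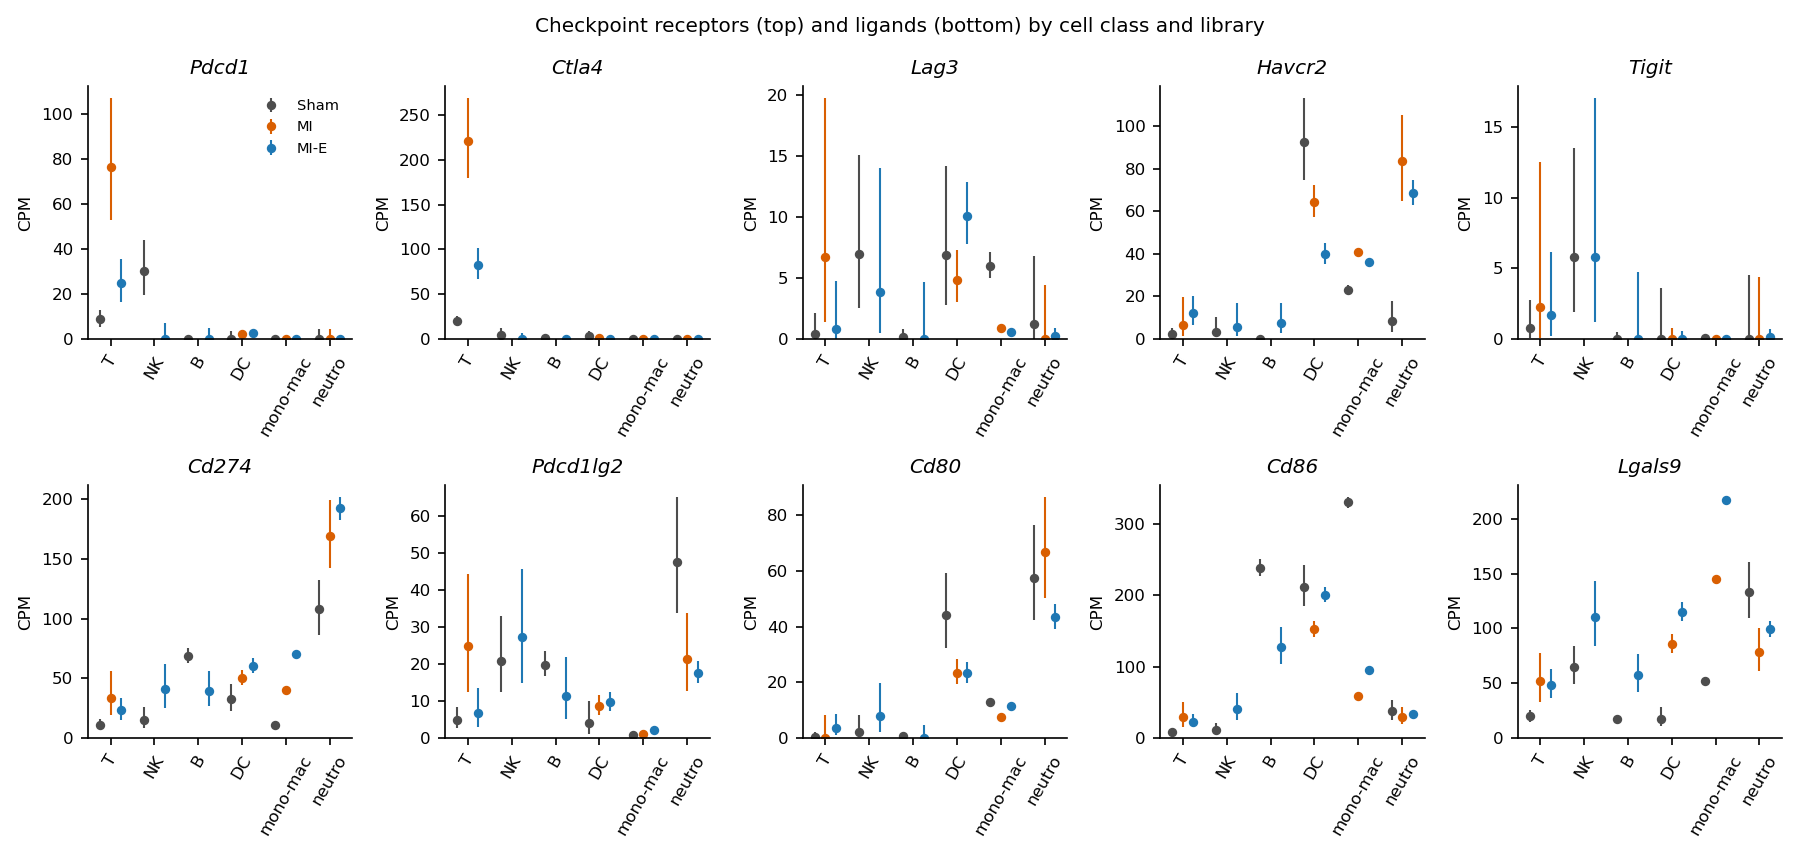
Level of each of the 10 genes, in CPM on the vertical axes, in the cell classes of the Sham, MI and MI-E libraries, receptors in the upper row and ligands in the lower row. Bars on the points are 95% Poisson intervals; Ctla4 reached 221 CPM in MI T cells, and Cd86 330.4 CPM in Sham monocytes and macrophages.

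The receptor transcripts were few and fell into 3 patterns of cell source. Ctla4 was a T cell transcript: T cells held 68.4%, 87.5% and 91.5% of its UMIs in Sham, MI and MI-E. Pdcd1 was divided. In Sham, 40.4% of its 57 UMIs lay in T cells and 45.6% in NK-classed cells, whereas in MI and MI-E the second source was dendritic cells, with 20.4% of 49 and 27.6% of 58 UMIs. Havcr2 and Lag3 were mostly myeloid: monocytes and macrophages held 77.6%, 88.2% and 74.8% of Havcr2 UMIs and 75.3%, 70.6% and 29.5% of Lag3 UMIs. Tigit had only 8, 7 and 6 UMIs per library, 5, 5 and 3 of them in NK cells.

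**Figure D2:**
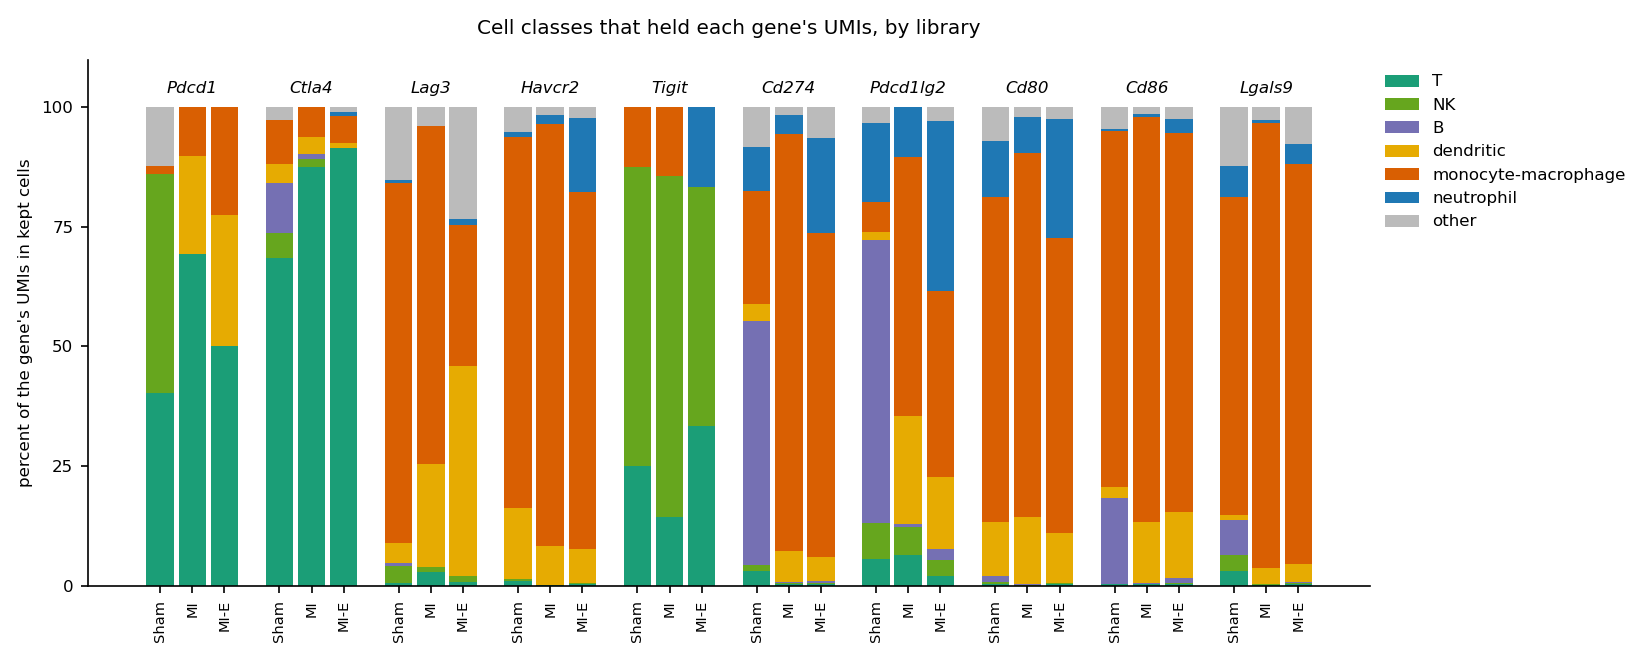
Share of each gene's UMIs, in percent of all its UMIs in kept cells of a library, that came from each cell class, as stacked bars for Sham, MI and MI-E. T cells fill most of the Ctla4 bars (68.4% to 91.5%), and monocytes and macrophages most of the Havcr2 bars; B cells hold 51.0% of Cd274 UMIs in Sham.

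In T cells, Ctla4 was lowest in Sham and highest in MI. Its level was 19.6 CPM (14.6 to 25.7) in Sham, from 52 UMIs in 27 of 713 cells. In MI it was 221 CPM (179 to 269), from 98 UMIs in 22 of 73 cells, and in MI-E 82.9 CPM (67.2 to 101), from 97 UMIs in 49 of 269 cells. The 3 intervals did not overlap. Ctla4 was 11.3-fold higher (7.96 to 16.1) in MI than in Sham, 4.23-fold higher (2.99 to 6.04) in MI-E than in Sham, and 2.66-fold lower (1.99 to 3.56) in MI-E than in MI. The share of T cells with a Ctla4 UMI followed the same order, at 3.79%, 30.1% and 18.2%. Median depth was alike, at 3614, 3893 and 3845 UMIs per T cell. A sub-cluster of cycling cells, described below, was deeper, with a median of 9085 UMIs over the libraries pooled. It held 3 of 713 T cells in Sham, 15 of 73 in MI and 12 of 269 in MI-E. With every cell thinned to 1500 UMIs the shares were 2.40%, 11.1% and 8.27% (over 666, 72 and 266 cells deep enough), which left MI and MI-E closer together. In monocytes and macrophages, cells not known for CTLA-4, 0.130%, 0.0879% and 0.0862% of cells had a Ctla4 UMI at median depths of 5011, 10092 and 9607 UMIs, a background far under the T cell shares.

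Pdcd1 followed the same order in T cells at lower counts. It stood at 8.67 CPM (5.50 to 13.02) in Sham, 76.6 CPM (53.0 to 107) in MI and 24.8 CPM (16.6 to 35.6) in MI-E, from 23, 34 and 29 UMIs. Pdcd1 was 8.83-fold higher (5.05 to 15.7) in MI than in Sham and 3.09-fold lower (1.83 to 5.26) in MI-E than in MI. The share of T cells with a UMI was 2.24%, 13.7% and 8.18%, against at most 0.158% of monocytes and macrophages. The MI values rested on few cells: a single T cell held 16 of its 34 Pdcd1 UMIs, and 25 of 98 Ctla4 UMIs also came from 1 cell. The highest cells in MI-E held 3 Pdcd1 and 12 Ctla4 UMIs, and those in Sham 3 and 7. Ctla4-positive cells carried a mean of 1.93, 4.45 and 1.98 UMIs in Sham, MI and MI-E.

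The other 3 receptors were sparse in T cells. Havcr2 had 6, 3 and 14 UMIs (2.26, 6.76 and 11.96 CPM in Sham, MI and MI-E); MI-E was 5.29-fold higher (1.91 to 16.8) than Sham, while the ratio of MI-E to MI, 1.77 (0.494 to 9.61), had an interval spanning 1. Lag3 had 1, 3 and 1 UMIs and Tigit 2, 1 and 2, too few for an order of the libraries. At least 1 of the 5 receptors was detected in 44 of 713 Sham T cells (6.17%; exact binomial interval 4.52% to 8.20%). The share was 38.4% in MI (28 of 73 cells; 27.2% to 50.5%) and 28.3% in MI-E (76 of 269; 23.0% to 34.0%). Thinned to 1500 UMIs, it was 4.05% (2.69% to 5.84%), 16.7% (8.92% to 27.3%) and 13.5% (9.66% to 18.2%). The MI and MI-E intervals overlapped both as counted and thinned, so their order was not resolved. Cells with 2 or more receptors were rare, at 6, 6 and 9.

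The T cells of the 3 libraries were not of the same kind, and the receptors were concentrated in a few kinds. Sorting T cells, NK cells and group 2 innate lymphoid cells (ILC2) into 12 sub-clusters placed 553 of 713 Sham T cells in a pair of sub-clusters with naive T cell markers, against 19 of 73 in MI and 13 of 269 in MI-E. Sub-cluster 5 also scored highest for the naive markers and held 5, 7 and 75 T cells. Counting it would bring these numbers to 558, 26 and 88. It was led by the neutrophil genes S100a9 and S100a8. At the finer resolution of 1.5, 83 of its 90 cells fell in a sub-cluster led by Enah, Gbp2 and Igfbp4, again with the naive markers highest. The other 7 fell in one led by S100a9 and S100a8. The first pair of naive-like sub-clusters had little Ctla4, 7.87 and 12.1 CPM over all libraries, and 0 and 0 Pdcd1 UMIs, and sub-cluster 5 had 17.5 CPM of Ctla4 and 2.91 of Pdcd1. Of the 12 sub-clusters, the highest Ctla4 level lay in the cycling T cell-like sub-cluster, which is led by division genes such as Mki67: 240.2 CPM (195 to 293), with a UMI in 19 of 38 cells. A T cell-like sub-cluster led by Gzmk, a granzyme, and Tnfrsf4, the costimulatory receptor OX40, had 111 CPM (88.7 to 138) in 196 cells, and Ctla4 was itself among its leading genes. That group was not uniform. At the finer resolution of 1.5, 112 of its cells fell in a sub-cluster led by Gzmk and Cd8a, with Ctla4 at 17.1 CPM (6.87 to 35.2) in 5 of 115 cells. Another 73 fell in one led by Tnfrsf4, Ctla4 itself, Maf, Foxp3 and Icos, with 263 CPM (206 to 329.6) in 28 of 74 cells. Its markers scored highest for the T cell list, with the CD4 T cell list next. At that resolution the Tnfrsf4-led one overlapped the cycling cells, at 228 CPM (185 to 278), so the order of these groups was not resolved. A gamma-delta T cell-like sub-cluster led by Il17a, Cd163l1 and Trdc had 86.3 CPM (59.4 to 121) in 90 cells.

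**Figure D3:**
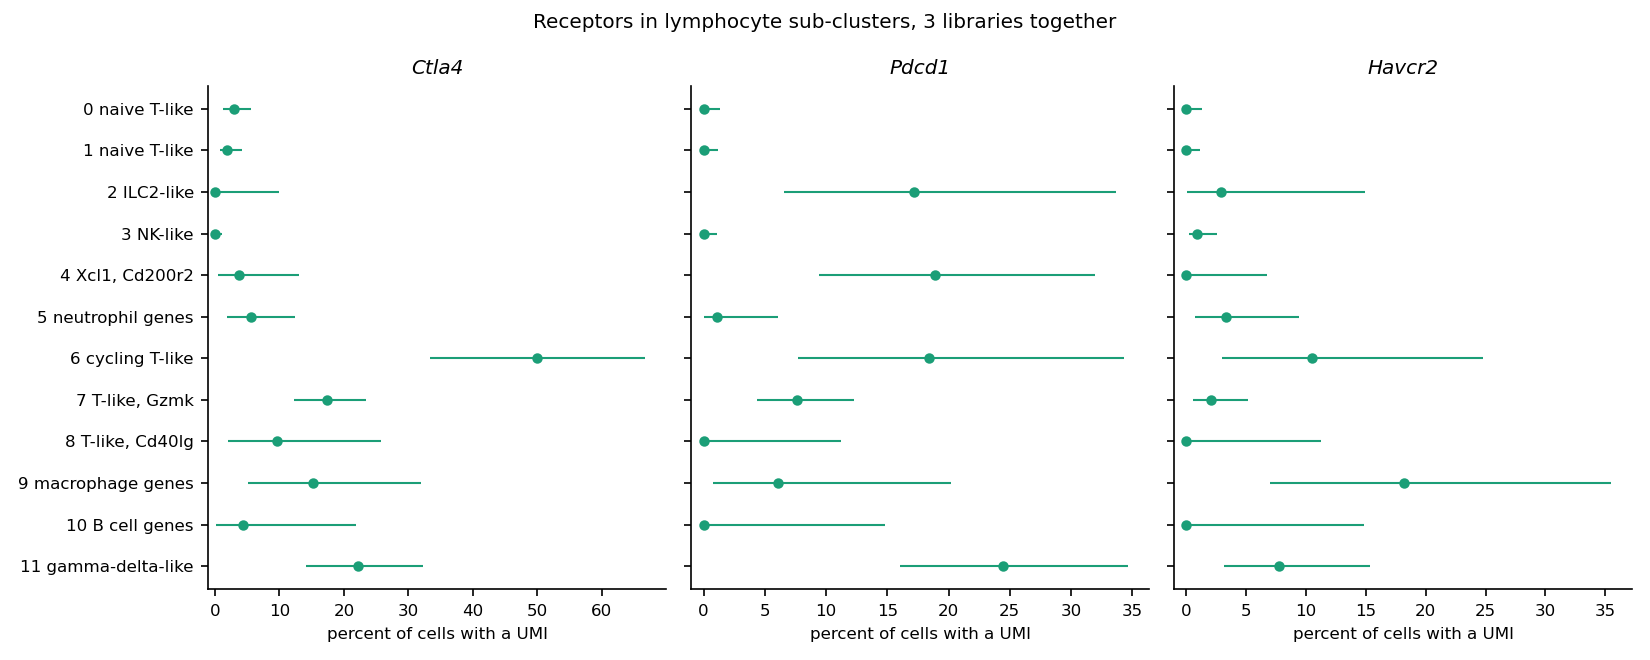
Share of cells, in percent, with at least 1 UMI of Ctla4, Pdcd1 or Havcr2 in each of the 12 sub-clusters of T, NK and ILC2 cells, the 3 libraries pooled. Shares are not thinned, and depth differed. The median was 9085 UMIs per cell in the cycling cells, 12540 in sub-cluster 9 and from 2642 to 4135 in the others. Ctla4 is highest in the cycling T-like cells (19 of 38 cells); the Pdcd1 shares of the gamma-delta T-like cells (24.4%) and sub-cluster 4 (18.9%) have overlapping intervals.

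Pdcd1 had its own distribution. The gamma-delta-like cells carried it in 24.4% of cells (89.0 CPM, 61.6 to 124), the cycling cells in 18.4% (71.8 CPM, 48.1 to 103), ILC2-like cells in 17.1% (49.6 CPM, 19.9 to 102) and the Gzmk-led cells in 7.65% (24.5 CPM, 14.5 to 38.7). ILC2 are innate lymphocytes of type 2 immunity; 5 of 32 in Sham had Pdcd1. Another source was sub-cluster 4, led by Xcl1, Cd200r2 and Gzmc, at 134 CPM (87.2 to 196). The 339 NK-like cells of sub-cluster 3 had 0 Pdcd1 and 0 Ctla4 UMIs but 11 Tigit UMIs, in 2.95% of cells. The Pdcd1 intervals of the gamma-delta-like cells, the cycling cells, the ILC2-like cells and sub-cluster 4 overlapped, so their order was not resolved.

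Within sub-clusters, the libraries differed less evenly than in T cells as a whole. Of the MI counts, 60 Ctla4 and 26 Pdcd1 UMIs came from 15 cycling cells, 11 of them with Ctla4 and 5 with Pdcd1. In MI-E, 12 cycling cells gave 26 Ctla4 UMIs in 5 cells and 1 Pdcd1 UMI. In the Gzmk-led sub-cluster, Ctla4 was detected in 8 of 100 cells in Sham, 10 of 21 in MI and 15 of 70 in MI-E, the order seen in T cells as a whole. In the Tnfrsf4-led part of it at the finer resolution, where Ctla4 was itself a leading gene, the counts were 5 of 26, 8 of 10 and 15 of 38. Pdcd1 in the Gzmk-led sub-cluster was spread otherwise, with 9, 2 and 4 positive cells. The gamma-delta-like cells were almost all from MI-E, 77 against 8 in Sham and 5 in MI. They held 22 of the 29 Pdcd1, 27 of the 97 Ctla4 and 8 of the 14 Havcr2 UMIs of MI-E T cells.

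Leaving out the naive-like sub-clusters 0 and 1 lowered the differences from Sham. On the log2(CPM + 1) scale, Ctla4 in MI against Sham went from 3.43 to 2.28 and Pdcd1 from 3.004 to 1.23, both still higher in MI. Between MI-E and Sham, Ctla4 went from 2.02 to 0.68, while Pdcd1 changed side, from 1.41 to -0.54. This removed naive-like cells mostly from Sham and kept sub-cluster 5, mostly of MI-E. With sub-cluster 5 left out too, the MI-E to Sham values were 0.95 for Ctla4 and -0.24 for Pdcd1, and MI kept under 50 T cells, too few for a ratio. How far the makeup of the T cells and how far the level per cell set the difference between libraries was not tested.

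Marker transcripts placed the receptors only in part. Foxp3, which defines regulatory T cells, had a UMI in 2, 1 and 5 T cells of Sham, MI and MI-E, of which 1, 0 and 4 also had Ctla4. Most Ctla4-positive T cells thus had no Foxp3 UMI at this depth. Among cells with the CD8 transcripts Cd8a or Cd8b1, 8 of 280 in Sham, 9 of 31 in MI and 8 of 80 in MI-E had Ctla4. Among cells with Cd4 the counts were 4 of 72, 6 of 10 and 6 of 26. Cells with the division gene Mki67 were positive for Ctla4 in 11 of 17 in MI and 9 of 19 in MI-E.

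The ligand transcripts were also counted in T cells, at low levels. Across Sham, MI and MI-E, Cd274 stood at 10.9, 33.8 and 23.1 CPM, Cd86 at 8.30, 29.3 and 23.1 CPM, and Lgals9 at 19.6, 51.8 and 48.7 CPM. Pdcd1lg2 had 13, 11 and 8 UMIs. All were lowest in Sham T cells. The summed level of 12 macrophage markers in T cells was also lowest in Sham but, unlike these ligands, highest in MI-E, at 396, 502 and 917 CPM, every marker having a UMI in each library, and its part in these ligand values was not tested. With predicted doublets kept, Cd86 in T cells turned to the other side, at log2 -0.28 in MI against Sham and -0.25 in MI-E against Sham, compared with 1.70 and 1.37 without them.

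A gene is called measured where its mean over the 2 libraries compared reached 5 CPM, and higher or lower at a ratio of at least 1.5-fold. In T cells, 6 members were measured between MI and Sham, Pdcd1, Ctla4 and the ligands other than Cd80, and all 6 were higher in MI. Of all genes measured there, 37.2% were higher and 15.7% lower. The median log2 ratio was 1.92 over the members and 0.28 over all genes. Between MI-E and Sham, 6 of 7 were higher, all but Pdcd1lg2, beside 34.5% of all genes higher and 8.99% lower. Without sub-clusters 0 and 1 this count was 2, Ctla4 and Lgals9, and it was 2, the same genes, with sub-cluster 5 left out too. Between MI-E and MI, 1 of 7 was higher, Havcr2 on 14 and 3 UMIs, and 3 were lower, Pdcd1, Ctla4 and Pdcd1lg2, beside 23.4% and 20.3% of all genes. The comparisons of MI and MI-E with Sham share the Sham library. The trimmed mean of M values put the centre of all genes in T cells at a log2 ratio of 0.40 for MI against Sham and 0.35 for MI-E against Sham, and taking it as the zero turned no member to the other side.

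In NK cells, the receptor most unequal between libraries was Pdcd1. Sham had 26 UMIs in 10 of 301 cells (30.1 CPM, 19.6 to 44.1), while the 37 MI and 87 MI-E cells had 0. Against a floor of 3 counts in MI-E, the level was at least 5.16-fold lower there than in Sham, and 3.90-fold lower at the limit of the exact interval. All 26 Sham UMIs lay in sub-cluster 4, the cells led by Xcl1, Cd200r2 and Gzmc, of which 45 of 53 were from Sham. The summed T cell markers of that sub-cluster, 2101 CPM, lay between those of the NK-like sub-cluster (554 CPM) and of the naive-like T cells (3500.2 and 3786 CPM). The other receptors were sparse in NK cells of Sham, MI and MI-E: Tigit had 5, 5 and 3 UMIs, Lag3 6, 1 and 2, Ctla4 4, 2 and 0, and Havcr2 3, 2 and 3.

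Of 8 members measured in NK cells between MI-E and Sham, 4 were higher, all of them ligands, and 2 lower, Pdcd1 and Lag3, the latter on 2 and 6 UMIs. Of all genes, 22.7% were higher and 23.3% lower. Cd86 was at 11.6 CPM in Sham and 40.8 in MI-E, Cd274 at 15.04 and 40.8, and Lgals9 at 64.8 and 111. The 12 macrophage markers in the same cells summed to 566 CPM in Sham and 6588 in MI-E, and their part in the ligand counts was not tested.

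Havcr2 was the receptor with the most UMIs, and it belonged to phagocytes and dendritic cells. In monocytes and macrophages it stood at 23.0 CPM (21.0 to 25.2) in Sham, 40.8 CPM (39.4 to 42.3) in MI and 35.9 CPM (34.6 to 37.3) in MI-E. Dendritic cells had the opposite order, 92.4 CPM (74.7 to 113), 64.3 CPM (57.2 to 72.1) and 39.8 CPM (35.1 to 45.1), and MI-E was 2.32-fold lower (1.81 to 2.95) than Sham. Neutrophils had 7 UMIs in Sham (8.57 CPM, 3.44 to 17.7) but 83.4 CPM (65.0 to 105) in MI and 68.6 CPM (63.0 to 74.5) in MI-E. B cells had 0 UMIs in 2962 Sham cells, where a floor of 3 counts would be 0.101% of cells, and 6 in 318 MI-E cells. Of the 6 classes, dendritic cells had the highest Havcr2 level in Sham and neutrophils in MI-E; in MI these 2 classes overlapped. NK, T and B cells were the lowest in each library.

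Within these classes Havcr2 was concentrated in particular cells. Among 13 dendritic sub-clusters the highest level was in the type 1 dendritic cell-like one (Xcr1, Clec9a), at 138 CPM (116 to 164) and a UMI in 65.9% of 85 cells; these are the cells specialised in cross-presentation. Those cells numbered 29 among 144 dendritic cells in Sham, 26 among 474 in MI and 30 among 640 in MI-E, the order of the pooled level. Nonclassical monocyte-like cells (cluster 14, led by Ace and Treml4) had 220.2 CPM (179.8 to 267) in Sham and 192 CPM (142 to 253) in MI-E, intervals that overlapped. Across the 9 monocyte and macrophage clusters with at least 50 cells in MI and MI-E, Havcr2 was lower in MI-E in 8, with ratios from 0.554 to 1.29. The lowest ratio was that of classical monocyte-like cells (cluster 11, Ly6c2 and Plac8), 97.6 CPM in MI and 54.1 in MI-E.

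Lag3 was mostly outside lymphocytes. Sham monocytes and macrophages held 128 UMIs in 119 cells, MI 72 and MI-E 43, or 6.01, 0.926 and 0.566 CPM in Sham, MI and MI-E. The pooled level was 6.48-fold lower (4.82 to 8.78) in MI than in Sham, although the gene fell short of the 5 CPM mean. Most Sham UMIs, 91, came from cluster 2, led by Mgl2, Lilra5, Hspa1b and Cd83, which held 2244 Sham cells but 69 in MI and 44 in MI-E. Inside that cluster Lag3 was not lower in MI: 8.04 CPM (6.47 to 9.87) in Sham and 18.0 CPM (8.22 to 34.1) in MI, on 9 UMIs. Among dendritic sub-clusters, the highest Lag3 level was in the plasmacytoid dendritic cell-like one (Siglech, Ccr9), the interferon-producing dendritic lineage. It had 168 CPM (111 to 242) on 28 UMIs, with a UMI in 13 of 20 cells. A Cd7-led sub-cluster followed at 34.5 CPM (19.7 to 56.0) on 16 UMIs. Sub-cluster 11, led by S100a8, Ifitm1 and Ltb, had 12.6 CPM (7.82 to 19.3) on 21 UMIs. Dendritic cells as a whole had 7, 22 and 64 Lag3 UMIs, and MI-E was 2.09-fold higher (1.27 to 3.56) than MI. From Sham, MI and MI-E came 1, 4 and 15 of the plasmacytoid-like cells, 3, 13 and 45 of the Cd7-led cells and 0, 44 and 151 of sub-cluster 11. What each adds to that ratio was not tested. Pdcd1 had 0, 10 and 16 UMIs in dendritic cells.

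Among the ligands, Cd274 and Lgals9 were higher in monocytes and macrophages of MI than of Sham, and higher again in MI-E, while Cd86 was lower in both as a pooled class. Among the genes leading against all other cells, clusters 2, 18 and 21 of this class had more markers of other cell types than of their own. Among those leading against other lineages, this held for cluster 18 alone, and cluster 2 had 5 markers of its own and 1 other. The pooled values are therefore given first and clusters by number after them. Cd274 stood at 10.7 CPM (9.35 to 12.2) in Sham, 40.4 CPM (39.0 to 41.8) in MI and 70.4 CPM (68.5 to 72.3) in MI-E. Lgals9 stood at 52.1 CPM (49.1 to 55.2), 145 CPM (142 to 148) and 217 CPM (214 to 220.3). For both genes the 3 intervals were apart and in the same order. Cd86 ran otherwise, from 330.4 CPM (323 to 338) in Sham to 59.0 CPM (57.3 to 60.7) in MI and 95.6 CPM (93.4 to 97.8) in MI-E. Cd274 was 3.77-fold higher (3.30 to 4.34) in MI than in Sham and 1.74-fold higher (1.67 to 1.82) in MI-E than in MI. Cd86 was 5.60-fold lower (5.40 to 5.82) in MI than in Sham, and 1.62-fold higher (1.56 to 1.68) in MI-E than in MI. Cd80, the other CD28 and CTLA-4 ligand, was low in all: 12.8, 7.42 and 11.6 CPM in Sham, MI and MI-E. Pdcd1lg2 was near absent, at 0.704, 1.20 and 2.09 CPM in Sham, MI and MI-E.

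Because median depth in this class differed, at 5011, 10092 and 9607 UMIs per cell, shares of positive cells were also taken after thinning to 1500 UMIs. Cd274-positive cells were 4.69%, 29.7% and 43.8% as counted and 1.57%, 6.17% and 10.7% after thinning. Cd86-positive cells were 72.2%, 41.0% and 55.8%, and 37.6%, 9.51% and 14.4% thinned; Lgals9-positive cells were 6.45%, 20.01% and 27.5% thinned. The order of the libraries was that of the CPM for each of these genes. Cells with 2 or more ligands detected made up 22.8%, 47.5% and 67.1% as counted, but 3.64%, 3.74% and 8.63% thinned, so the gap between Sham and MI in that share was small at equal depth and the higher MI-E share remained.

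Of 5 members measured in this class between MI and Sham, 3 were higher, Havcr2, Cd274 and Lgals9, and 2 lower, Cd80 and Cd86, beside 25.1% of all genes higher and 18.4% lower. Between MI-E and MI, 3 were higher, Cd274, Cd80 and Cd86, and 0 lower, beside 4.53% and 5.34% of all genes; Lgals9 missed the cutoff at 1.49 (1.46 to 1.53). Between MI-E and Sham, 3 were higher and 1 lower, Cd86, beside 25.7% and 19.4%. The median log2 ratio of the members was 0.80, 0.58 and 0.62 in these comparisons, and that of all genes 0.12, 0.02 and 0.12. The trimmed mean of M values put the centre of all genes at -0.18 against Sham. Taking it as the zero turned none of the 5 to the other side in MI against Sham, and in MI-E against Sham turned Cd80, from -0.13 to 0.03, within 1.5-fold on both sides.

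Sham and MI macrophages occupied different clusters. Cluster 2 (Mgl2, Cd83) held 2244, 69 and 44 cells of Sham, MI and MI-E, and cluster 5, resident macrophage-like by Lyve1, Folr2 and Cd163, 1280, 149 and 74. Clusters 18 (Arg1, Cxcl3), 21 (Gpnmb, Fabp5), 22 (Ccl8, Trem2) and 23 (Ms4a7, Pdpn) held from 1 to 4 Sham cells each and from 579 to 1745 from MI or MI-E. Only clusters 2, 5 and 11 had 50 cells in both Sham and MI. In all 3, Cd86 was lower in MI: 406 and 229.6 CPM in cluster 2, 258 and 105 in cluster 5, 185 and 119 in cluster 11. Those differences, 1.55 to 2.47-fold, were smaller than the pooled 5.60-fold. Lgals9 was higher in MI in all 3: 3.61 (2.76 to 4.66) in cluster 2, 2.71 (2.33 to 3.16) in cluster 5 and 1.63 (1.29 to 2.10) in cluster 11.

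Cd274 was less even: its interval was clear of 1 in a single cluster. Its ratio of MI to Sham was 0.729 (0.148 to 2.20) in cluster 2 and 1.25 (0.503 to 2.71) in cluster 5, with intervals spanning 1, and 1.98 (1.37 to 2.95) in the classical monocyte-like cluster 11 (33.8 and 66.7 CPM). Averaged over the 3 clusters the log2 ratio was 0.28, against 1.82 for the pooled class. The clusters themselves differed in Cd274, clusters 2 and 5, which held most of the Sham cells, being the lowest. Havcr2 had ratios of 1.14 (0.536 to 2.13), 1.87 (1.23 to 2.79) and 1.63 (1.23 to 2.19) in clusters 2, 5 and 11, and Cd80 1.06 (0.420 to 2.24), 0.648 (0.270 to 1.34) and 0.589 (0.360 to 0.999). As a mean over these clusters, Cd86 was lower and Lgals9 higher by over 1.5-fold, with log2 ratios of -0.92 and 1.32, and Havcr2 (0.58) and Cd80 (-0.40) were short of it. MI-E and Sham shared 3 clusters, 5, 11 and 14. There Cd86 had ratios from 0.468 to 1.17, lower in MI-E in 2 and by 1.5-fold in 1, a mean log2 of -0.43 against -1.78 pooled. Cd80 was lower by 1.5-fold in 3 of 3 (1.82 to 2.51-fold), although the pooled ratio was 0.906. Havcr2 was lower in 2 of 3 (0.870 to 2.42), the lower ratios with intervals spanning 1. Its mean log2 ratio over the 3 was 0.29, and its pooled ratio was 1.56. Cd274 (2.32 to 2.84) and Lgals9 (2.52 to 3.82) were higher in 3 of 3.

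MI-E and MI shared 9 clusters (5, 6, 11, 12, 18, 19, 21, 22 and 23), and there 3 ligands were higher in MI-E throughout. Cd274 was higher in 9 of 9 clusters, with ratios from 1.20 to 2.26, Cd86 in 9 of 9 (1.15 to 1.81) and Lgals9 in 9 of 9 (1.33 to 1.54). Each gene passed 1.5-fold in 3 of these clusters. As a mean over the clusters the log2 ratios were 0.56, 0.45 and 0.52, with Cd80 at 0.41, all short of 1.5-fold. The cells of 1 library share their source, so the 9 clusters are not 9 replicates. Among the 9, Cd274 was highest in cluster 19 (Ear2, Ly6i, Plac8), at 92.6 CPM in MI and 135 in MI-E. Cluster 6, led by the interferon-induced genes Cmpk2, Rsad2 and Ifit3, followed at 83.3 and 103 CPM, cluster 18 at 81.9 and 98.4, and cluster 11 at 66.7 and 96.1. The resident-like cluster 5 was lowest, at 6.02 and 13.6. Lgals9 was highest in the interferon-induced cluster 6, at 306 CPM in MI and 417 in MI-E. Cd80 was measured in 6 clusters and higher in MI-E in 5.

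**Figure D4:**
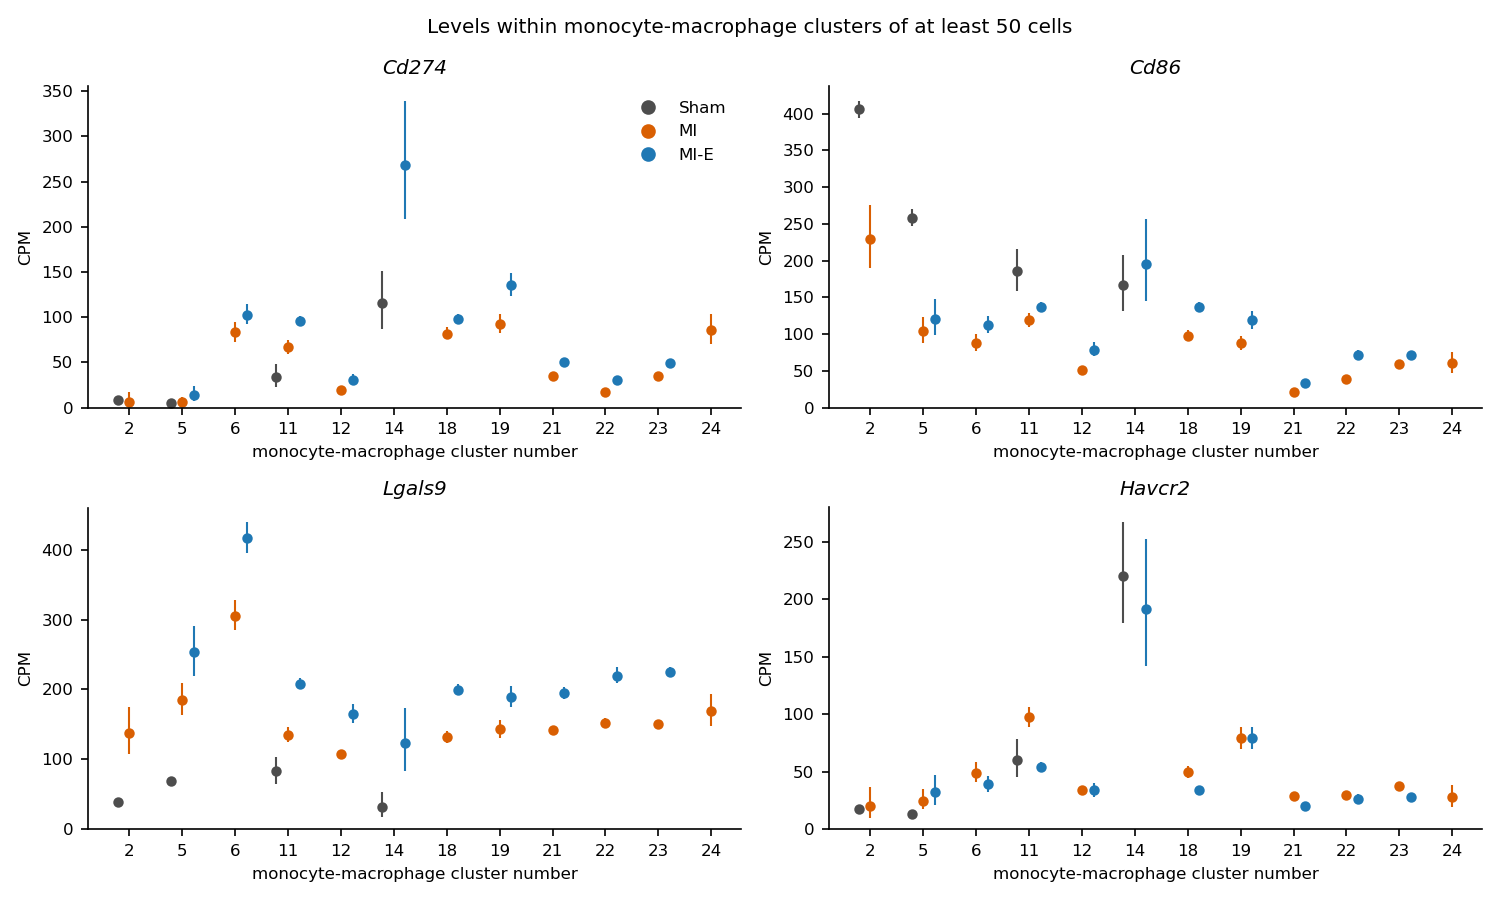
Levels of Cd274, Cd86, Lgals9 and Havcr2, in CPM, in the monocyte and macrophage clusters with at least 50 cells, with Sham, MI and MI-E as separate points and 95% Poisson intervals as bars. The MI-E points of Cd274 lie above the MI points in all 9 clusters that hold both, and the highest is cluster 19 (135 CPM) among them.

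Nonclassical monocyte-like cells (cluster 14) had the highest Cd274 of the monocyte and macrophage clusters with at least 50 cells in Sham, 115 CPM (86.7 to 151) from 54 UMIs, and in MI-E, 268 CPM (209 to 339) from 70 UMIs. These are the patrolling monocytes of the vessel wall. Their intervals did not overlap, and their Lgals9 was 32.1 CPM in Sham and 123 in MI-E. Cd86 was alike, 167 and 195 CPM. MI had only 22 of these cells.

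The 2 ligands that were higher in MI-E than in MI in every shared cluster and lowest in Sham as a class, Cd274 and Lgals9, are shown with the 250 bases before their transcription starts, because both proteins are described interferon targets. The sequences are from RefSeq on build GRCm38.p6, on the gene's strand, 5′ to 3′, at chr19:29367188-29367437 (plus strand) for Cd274 and chr11:78984925-78985174 (minus strand) for Lgals9. Capitals mark a match to the core of the interferon-stimulated response element (ISRE), GAAA and GAAA with any 2 bases between them, on either strand.
Lgals9: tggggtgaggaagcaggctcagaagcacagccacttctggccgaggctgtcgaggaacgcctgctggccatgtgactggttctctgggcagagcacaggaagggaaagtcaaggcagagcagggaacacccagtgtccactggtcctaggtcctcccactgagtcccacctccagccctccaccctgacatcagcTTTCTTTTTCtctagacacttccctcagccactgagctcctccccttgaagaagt
Cd274: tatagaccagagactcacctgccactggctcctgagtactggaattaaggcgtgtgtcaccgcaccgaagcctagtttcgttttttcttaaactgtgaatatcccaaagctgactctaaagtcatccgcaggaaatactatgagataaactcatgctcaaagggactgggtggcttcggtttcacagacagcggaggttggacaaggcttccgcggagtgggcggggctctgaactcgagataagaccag
The Lgals9 window holds the motif on the opposite strand, 55 to 46 bases before the start, and the Cd274 window does not. Of 32851 RefSeq windows of this length, 2.98% hold it. The gamma-activated sequence TTCNNNGAA (7.02% of windows) and the TATA box TATAAA (12.4%) were in none of the 8 windows found for the 10 genes, and the ISRE core in no other. Such a match is a description of the letters and shows no binding. In the annotation of build GRCm38, Cd274 (chr19:29367455-29388095) and Pdcd1lg2 (chr19:29410919-29471161) are neighbours on the plus strand, 22824 bases apart. Each overlaps an antisense gene, Gm36043 and A930007I19Rik; no source used here says whether counting used strand, and without it their reads cannot be told apart.

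Neutrophils carried Cd274 in every library, at 108 CPM (86.4 to 133) in Sham, 169 CPM (142 to 199) in MI and 192 CPM (183 to 202) in MI-E, the highest level of any class in each library. It was 1.57-fold higher (1.20 to 2.07) in MI than in Sham and 1.79-fold higher (1.44 to 2.24) in MI-E than in Sham, and MI and MI-E overlapped. Pdcd1lg2 had the opposite order, 47.7 CPM (33.9 to 65.3), 21.4 CPM (12.7 to 33.9) and 17.7 CPM (14.9 to 20.8), on 39, 18 and 144 UMIs, and MI-E was 2.70-fold lower (1.85 to 3.87) than Sham. Lgals9, which was higher in MI in macrophages, was 1.70-fold lower (1.24 to 2.34) in MI neutrophils (133, 78.6 and 99.2 CPM in Sham, MI and MI-E). Cd80 stood at 57.5, 66.7 and 43.4 CPM in Sham, MI and MI-E, 1.54-fold lower (1.14 to 2.04) in MI-E than in MI. Cd86 was low, at 37.9, 29.8 and 33.9 CPM in Sham, MI and MI-E. Neutrophils of Sham lay in cluster 3 (396 of 421), and those of MI and MI-E mostly in clusters 17 and 20, so no neutrophil cluster had 50 cells of both Sham and MI.

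Within clusters 17 and 20, the MI-E to MI ratios were 1.03 and 1.12 for Cd274, 0.726 and 0.734 for Cd80 and 0.705 and 0.815 for Pdcd1lg2, so the macrophage pattern of higher Cd274 and Cd80 in MI-E was not seen there at 1.5-fold. Of 6 members measured, 2 were higher in MI than in Sham, Havcr2 and Cd274, and 2 lower, Pdcd1lg2 and Lgals9, beside 41.1% and 17.6% of all genes. Between MI-E and Sham, 2 were higher and 1 lower, beside 36.7% and 17.7%. Between MI-E and MI, 0 were higher and 1 lower, Cd80, beside 9.49% and 15.1%. The centre of all genes by the trimmed mean of M values was at a log2 ratio of 0.38 for MI against Sham, so the Cd274 ratio there, 0.65 on the same scale, was less than 1.5-fold above it.

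B cells were the main Cd274 source of the Sham library, with 51.0% of its UMIs, and the main Pdcd1lg2 source, with 59.2%. Between Sham and MI-E, 3 of 4 measured members were lower and 1 higher, beside 14.6% of all genes lower and 14.9% higher. Cd86 was 239 CPM (228 to 251) in Sham and 128 CPM (104 to 155) in MI-E, 1.87-fold lower (1.53 to 2.31). Cd274 was 69.0 CPM (63.0 to 75.3) and 39.6 CPM (26.9 to 56.2), 1.74-fold lower (1.21 to 2.59). Pdcd1lg2, on 141 and 9 UMIs, was 1.73-fold lower (0.886 to 3.86), an interval that spans 1. Lgals9 went the other way, 16.9 CPM (14.0 to 20.2) and 57.4 CPM (41.9 to 76.9), 3.39-fold higher (2.35 to 4.82) in MI-E. The 47 MI cells had 15 Cd86, 9 Cd274 and 11 Lgals9 UMIs. Cd80 had 5 UMIs in Sham and 0 in MI-E. Macrophage markers in B cells summed to 1325 CPM in Sham and 2588 in MI-E, and their part in the Lgals9 difference was not tested.

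Dendritic cells had high Cd86 in all libraries, 212 CPM (185 to 243) in Sham, 153 CPM (142 to 165) in MI and 201 CPM (190.1 to 212) in MI-E, a narrower range than in macrophages. Lgals9 was 17.7 CPM (10.5 to 28.0), 85.8 CPM (77.5 to 94.8) and 115 CPM (107 to 124), and MI was 4.85-fold higher (3.03 to 8.27) than Sham. Cd274 was 32.4 CPM (22.3 to 45.6), 50.3 CPM (44.0 to 57.2) and 60.6 CPM (54.7 to 67.0), MI being 1.55-fold higher (1.07 to 2.30) than Sham. Cd80 was lower in MI and MI-E, at 44.2, 23.5 and 23.3 CPM in Sham, MI and MI-E, and Pdcd1lg2 had 4, 39 and 61 UMIs. Macrophage markers in these cells summed to 2218, 5518 and 5434 CPM, and B cell markers to 314, 47.9 and 88.0. Sub-cluster 1, led by the B cell genes Igkc and Cd79a, held 86 of the 144 Sham cells and had 11.9 CPM of Lgals9 over all libraries. Sub-clusters 4 (Apoe, Apoc2, C1qa) and 9 (Nr1h3, F10) had too few detected markers of any dendritic list for a name. They held 11, 117 and 76 cells and 0, 46 and 44 cells of Sham, MI and MI-E. Their Lgals9 was 148 and 102 CPM, Cd274 49.4 and 30.2 CPM and Havcr2 61.9 and 62.5 CPM. What these 3 sub-clusters add to the values of each library was not tested. Of 7 members measured, 3 were higher in MI than in Sham, Cd274, Pdcd1lg2 and Lgals9, and 1 lower, Cd80, beside 29.0% and 12.1% of all genes. In MI-E against Sham the counts were 3 and 2, with Havcr2 and Cd80 lower, beside 31.4% and 11.1%. In MI-E against MI they were 1, Lag3, and 1, Havcr2, beside 7.22% and 4.82%.

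The mature migratory dendritic cell-like sub-cluster (Fscn1, Cacnb3), cells known to carry antigen to lymph nodes, was small but had the highest Cd274 and Pdcd1lg2 of the dendritic sub-clusters. Its 32 cells, 0 from Sham, 10 from MI and 22 from MI-E, had Cd274 at 214 CPM (159 to 281) and Pdcd1lg2 at 79.6 CPM (47.9 to 124). The next highest, sub-cluster 10, had 101 CPM (81.1 to 123) and 14.1 CPM (7.48 to 24.03), intervals apart from the first; it is led by the macrophage genes Ccl8, Pf4 and Gpnmb and had a median of 17839 UMIs per cell, against 7012 in the mature cells. A UMI of Cd274 was seen in 71.9% of the mature cells and of Pdcd1lg2 in 34.4%. Cd80, at 62.8 CPM (35.2 to 104), did not differ beyond its interval from sub-cluster 1 (56.2 CPM, 38.7 to 78.9), nor did Cd86, at 226 CPM (169.9 to 295), from sub-cluster 11 (253 CPM, 229.5 to 278). Lgals9 was low there, 25.1 CPM (9.22 to 54.7), so the ligands did not go together in dendritic cells. Type 1-like cells had 28.1 CPM of Cd274 and 198 of Cd86, and plasmacytoid-like cells 29.9 CPM of Cd86, the lowest of the sub-clusters.

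**Figure D5:**
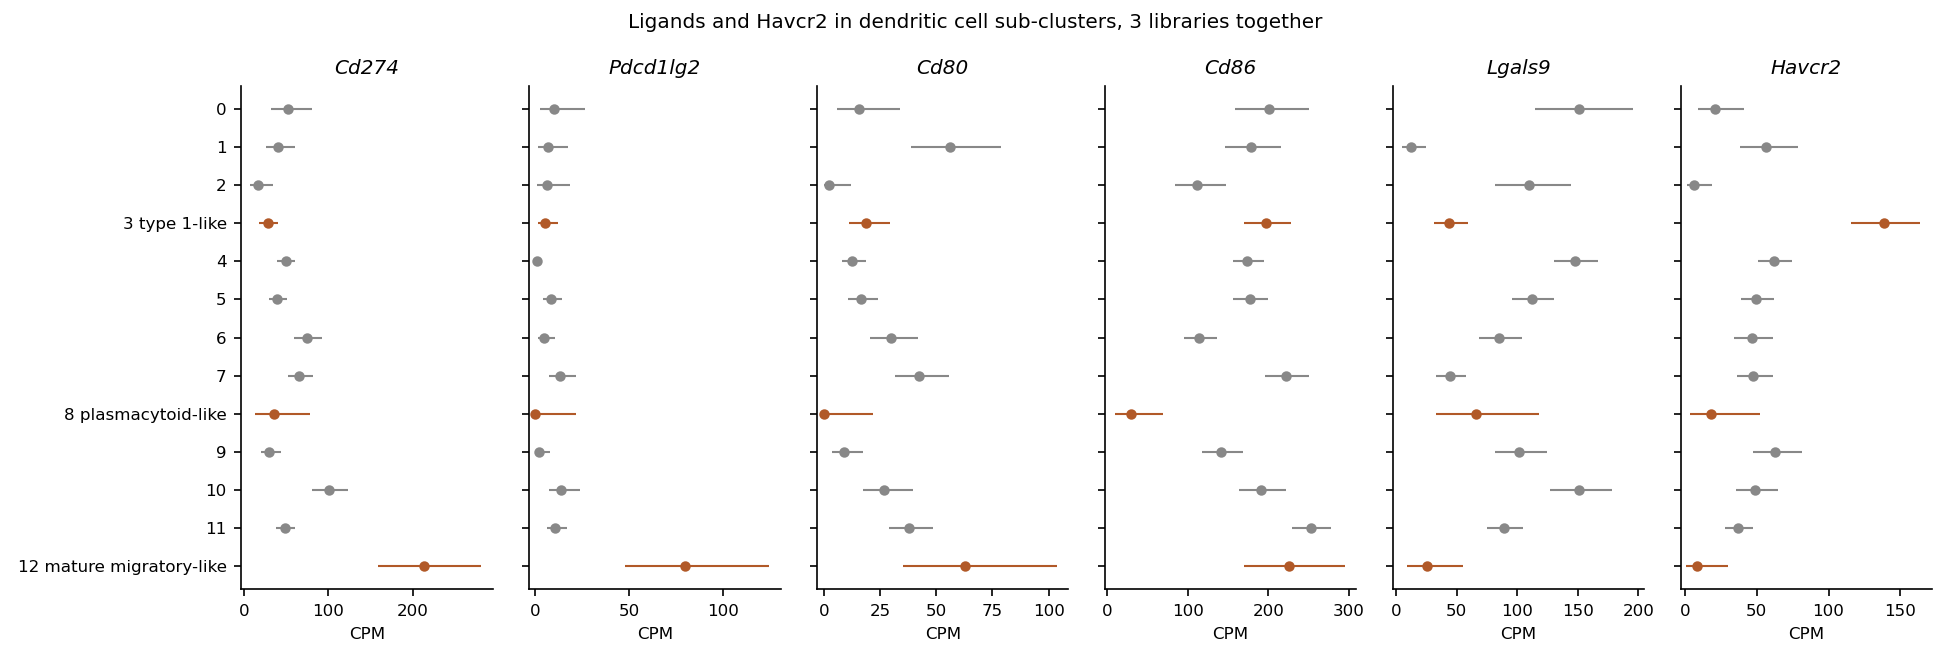
Levels of the 5 ligands and Havcr2, in CPM with 95% Poisson intervals, in the 13 dendritic cell sub-clusters, libraries pooled and named sub-clusters in orange. Cd274 and Pdcd1lg2 peak in the mature migratory-like cells (214 and 79.6 CPM) and Havcr2 in the type 1-like cells (138 CPM).

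Ranked by level, the classes ordered differently for each ligand. For Cd274 in MI-E the order was neutrophils (192 CPM), monocytes and macrophages (70.4), dendritic cells (60.6), NK cells (40.8), B cells (39.6) and T cells (23.1); from dendritic cells down, the intervals of neighbours overlapped. In Sham it was neutrophils (108), B cells (69.0), dendritic cells (32.4), NK cells (15.04), T cells (10.9) and monocytes and macrophages (10.7), where neighbours again overlapped from dendritic cells down. In MI, neutrophils (169) were followed by dendritic cells (50.3), monocytes and macrophages (40.4) and T cells (33.8), the last pair overlapping. Monocytes and macrophages thus moved from the low end in Sham to next after neutrophils in MI-E. For Cd86 in Sham, monocytes and macrophages (330.4 CPM) led B cells (239) and dendritic cells (212), the latter pair overlapping, while in MI and MI-E dendritic cells were first (153 and 201). For Lgals9, of the 6 classes compared, neutrophils led in Sham (133) and monocytes and macrophages in MI (145) and MI-E (217).

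The wider pathway was read from a list of 52 related genes, among them costimulatory receptors, their ligands, signalling proteins and the interferon-gamma route to ligand expression. In T cells, 39 were measured between MI and Sham, 22 higher and 6 lower in MI, beside 37.2% and 15.7% of all genes, with a median log2 ratio of 0.88 against 0.28 over all genes. Of its receptors and partners, 11 of 14 were higher. Entpd1, which encodes the ectoenzyme CD39, was 7.47-fold higher (22.5 against 3.02 CPM), Tnfrsf4 5.97-fold higher (108 against 18.1 CPM), Ifng, the cytokine interferon gamma, 5.22-fold higher (187 against 35.8 CPM), Tnfrsf9, the costimulatory receptor 4-1BB, 4.59-fold higher (45.0 against 9.81 CPM) and Icos, another costimulatory receptor, 3.37-fold higher (313 against 92.8 CPM). Activating and inhibitory receptors were thus higher together in MI T cells as a pooled class. Naive-like cells of sub-clusters 0 and 1 were 553 of 713 T cells in Sham, 19 of 73 in MI and 13 of 269 in MI-E. Their part in the ratios of the related genes was not tested. Between MI-E and MI, 6 were higher and 13 lower of 39, beside 23.4% and 20.3% of all genes, and Ifng was 3.42-fold lower (54.7 against 187 CPM). Between MI-E and Sham, 19 were higher and 3 lower of 36, beside 34.5% and 8.99% of all genes, with Icos 4.07-fold higher (378 against 92.8 CPM).

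In monocytes and macrophages the list was mixed between MI and Sham, with 7 higher and 8 lower of 28, beside 25.1% and 18.4% of all genes. Irf1, the interferon-induced factor known to act at the Cd274 promoter, was 3.58-fold lower (27.0 against 96.6 CPM). Lgals3, the galectin that binds LAG-3, was 4.18-fold higher (3979 against 953 CPM). Between MI-E and MI, 0 were lower and 3 of 28 higher, beside 5.34% and 4.53% of all genes. Among those higher were Jak2, the kinase of the interferon-gamma receptor, 1.57-fold higher (49.8 against 31.8 CPM) and Prdm1 1.52-fold higher (37.0 against 24.4 CPM). In dendritic cells 6 were higher and 7 lower of 31 in MI against Sham, beside 29.0% and 12.1% of all genes, the ICOS ligand gene Icosl being 6.27-fold lower (4.39 against 27.5 CPM). In neutrophils 10 were higher and 3 lower of 28, beside 41.1% and 17.6% of all genes, and unlike in macrophages Irf1 was 3.51-fold higher (98.9 against 28.1 CPM).

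Genes with the most similar pattern were sought over the 20 profiles of a class in a library with at least 50 cells, by Pearson's r of log2(CPM + 1) among 8673 genes that reached 20 CPM in a profile. The profiles share libraries and differ in depth, so r is a description. For Ctla4 the 3 closest were Tcrg-C1 (r = 0.941), Trgv2 (r = 0.939) and Aqp3 (r = 0.924), and for Pdcd1 Gzmk (r = 0.908), Tcrg-C2 (r = 0.904) and Cd3e (r = 0.891), T cell receptor and T cell genes for the most part. Havcr2 was closest to Rbpj (r = 0.904), Il1b (r = 0.902) and Txnrd1 (r = 0.882), and Cd86 to Cd83 (r = 0.930), Stap1 (r = 0.914) and Swap70 (r = 0.881). Cd274 was closest to Sp140 (r = 0.887), Msn (r = 0.884) and Gripap1 (r = 0.872), Pdcd1lg2 to Dennd4a (r = 0.919), Hip1r (r = 0.893) and Supt4a (r = 0.891). Lgals9 had Ctsd (r = 0.958), Apoc2 (r = 0.891) and Spp1 (r = 0.872), and Cd80 Pilrb1 (r = 0.939), AI839979 (r = 0.929) and Csf2ra (r = 0.924). No member was among the 3 closest genes of another. Lag3 and Tigit did not reach 20 CPM in any profile.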

How the data were processed

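Whole-number UMI counts per gene and cell barcode were deposited for 3 libraries, per the file headers. They were made with Cell Ranger 5.0.1 on mm10, per the submitters' processing notes; the annotation release, the cell calling and the use of strand are not given in the sources used here. Barcodes with under 200 genes or over 10% mitochondrial UMIs were left out. Doublets predicted by Scrublet in scanpy 1.11.5 were removed, 1032, 662 and 291 in Sham, MI and MI-E. Its automatic threshold marked 0%, 0.011% and 2.29% of barcodes. It was used for MI-E, while Sham and MI were cut at the expected rate of 0.8% per 1000 barcodes. A smaller share of barcodes was thus removed in MI-E, and a cut at an equal share was not tested. With doublets kept in all libraries, 29 log2 ratios of members in T cells and in monocytes and macrophages stayed within their counting interval. Another 4 moved beyond it, and 2, both of Cd86 in T cells, turned to the other side. Cells were normalised to 10000 UMIs and clustered on 2000 variable genes, 30 principal components and 15 neighbours (Leiden, resolution 1), with the 10 genes and related genes that are no cell type marker left out. Clusters were named only from fixed marker lists with at least 3 detected markers, and lymphocytes and dendritic cells were clustered again. Raw counts were summed per class and library and divided by the class total; intervals are 95% exact Poisson, ratio of Poisson counts and Clopper-Pearson, computed with scipy 1.17.1. Log2 ratios are of CPM + 1. Classes under 50 cells enter no ratio. Thinning drew 1500 UMIs per cell without replacement and left out shallower cells. The scripts were tested on simulated data.

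Named in the text are all 10 genes, up to 6 genes per class and comparison of a list of 52 related genes, by size among those with 20 CPM and a 1.5-fold ratio, and the 3 genes most alike in pattern to each member that reached 20 CPM. The members and lists were chosen with earlier results of these data known. A few genes that this rule or the marker lists would name are not reported here. Alternatives were another pseudocount, trimmed-mean factors, no filter, other doublet and mitochondrial settings, stricter lineage filters, libraries clustered alone, other thinning depths and resolutions. A few further ones were added after seeing the data: the class without certain clusters or sub-clusters, and a mean over shared clusters.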

Additional observations from a re-analysis of the deposited data

Results flagged for a closer look

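Several ligands stood on opposite sides in different cell types of the same pair of libraries. None of these differences between cell types was tested, since each group is 1 library, and the ratios are of CPM.

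Between MI and Sham, Cd86, a CD28 and CTLA-4 ligand, had a ratio of 0.178 in monocytes and macrophages and 3.53 in T cells, where its level was low. Lgals9 was higher in MI in monocytes and macrophages (2.79), dendritic cells (4.85) and T cells (2.64) but lower in neutrophils (0.589). Pdcd1lg2 was higher in MI T cells (5.05) and lower in MI neutrophils (0.449). Between MI-E and MI, Cd80 was higher in monocytes and macrophages (1.56) and lower in neutrophils (0.651).

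Between MI-E and Sham, Cd274 was higher in monocytes and macrophages (6.58), NK cells (2.71), T cells (2.11), dendritic cells (1.87) and neutrophils (1.79), and lower in B cells (0.574). Cd86 was lower in monocytes and macrophages (0.289) and B cells (0.534) and higher in NK cells (3.53) and T cells (2.78). With predicted doublets kept, Cd86 in T cells turned to the other side, here and between MI and Sham. Macrophage markers in NK cells summed to 566 CPM in Sham and 6588 in MI-E, and their part in the NK value was not tested. Havcr2 was higher in neutrophils (8.00), T cells (5.29) and monocytes and macrophages (1.56) and lower in dendritic cells (0.431). In the 3 monocyte and macrophage clusters shared by MI-E and Sham, Havcr2 had ratios from 0.870 to 2.42 and a mean log2 ratio of 0.29. It was lower in MI-E in 2 of 3, with intervals spanning 1 in both.

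Some members were above their level in all 6 compared classes in cells outside them. Lgals9 was at 185 and 319 CPM in the MI and MI-E cells of cluster 4, which is led by endothelial genes but was left unnamed. Lag3 was at 9.47 CPM in Sham fibroblasts and 9.19 CPM in Sham cells of cluster 4, on 4 and 11 UMIs, and at 14.0 CPM in MI-E cells of cluster 13, which has few UMIs per cell and no name, on 4 UMIs. The counting intervals of these Lag3 values, 9.47 CPM (2.58 to 24.2), 9.19 CPM (4.59 to 16.4) and 14.0 CPM (3.81 to 35.8), overlapped those of some compared classes, such as 6.94 CPM (2.55 to 15.1) in Sham NK cells and 10.1 CPM (7.76 to 12.9) in MI-E dendritic cells.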

How the results depend on the processing

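Over all alternatives, 254 log2 ratios of members in T cells and in monocytes and macrophages moved by less than their counting interval, 73 moved by more and 4 turned to the other side. The latter were Cd86 in T cells with predicted doublets kept, at -0.28 for MI against Sham and -0.25 for MI-E against Sham (1.70 and 1.37 as reported), and Pdcd1 in T cells without the naive-like sub-clusters 0 and 1, at -0.54 for MI-E against Sham, and without sub-cluster 5 too, at -0.24 (1.41 as reported). The cause was not tested. Of the 254, 35 came from the setting with no filter on low genes, which leaves every ratio as it was. Adding clusters with few UMIs per cell changed no T cell, so the T cell ratios could not move there either. In monocytes and macrophages, the members lower in MI than in Sham numbered 2, but 5 with no filter on low genes, 1 at 2-fold and 1 as a mean over shared clusters, where those higher went from 3 to 1, Lgals9. Those higher in MI-E than in MI went from 3 to 5 with no filter and to 0 at 2-fold and 0 as a mean over shared clusters, and those lower from 0 to 2 with no filter. Those higher in MI-E than in Sham went from 3 to 5 and those lower from 1 to 4 with no filter. Without clusters 2, 18 and 21, the MI to Sham log2 ratio was 1.37 for Cd274 and -1.97 for Cd86, against 1.82 and -2.47. In T cells, those lower in MI than in Sham went from 0 to 1 with no filter. Those higher in MI-E than in MI went from 1 to 2 with no filter, 0 with doublets kept and 0 at 2-fold. Without the naive-like sub-clusters, those higher in MI-E than in Sham went from 6 to 2 and those lower from 0 to 1, and to 2 and 1 with sub-cluster 5 left out too. Receptor levels of the NK-like and gamma-delta-like sub-clusters, and ligand and Havcr2 levels of the type 1-like and mature dendritic ones, pooled over sub-clusters of the same name, stayed within their intervals at both other resolutions, while Ctla4 in the Gzmk-led sub-cluster fell from 111 to 17.1 CPM at resolution 1.5. Of the 73 MI T cells, 29 had under 2 detected markers on each of the B cell, macrophage and neutrophil lists. In Sham 537 of 713 and in MI-E 71 of 269 T cells did. On the B cell, T cell and neutrophil lists, 3436 of 3859, 5649 of 6826 and 2979 of 6957 monocytes and macrophages of Sham, MI and MI-E did. With these cells alone, 16 log2 ratios stayed within their counting interval and 6 moved beyond it. When the MI library was clustered alone, 0 cells were named T cells. These alternatives therefore gave no MI value in T cells. No paired analysis was possible because each group is 1 library. With 1 library per group, differences between animals and between conditions cannot be told apart.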

Other observations

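Ligand transcripts were also counted in the clusters with markers of non-leukocytes that passed the CD45 sort. Cluster 4 scored 1 for both the endothelial and the cardiomyocyte markers and was left unnamed. Macrophage markers were not summed in it or in fibroblasts, and the part of other cells' transcripts in these values was not tested. In cluster 4, led by endothelial genes, Cd274 stood at 43.4 CPM (32.4 to 57.0) in Sham, 36.4 CPM (25.9 to 49.7) in MI and 113 CPM (102 to 124) in MI-E, with a UMI in 9.97%, 27.0% and 50.7% of cells. Sham and MI overlapped and MI-E lay above both. Lgals9 in these cells was 106 CPM (88.4 to 126) in Sham, 185 CPM (159.9 to 212) in MI and 319 CPM (300.5 to 337) in MI-E, intervals that were apart. Median depth was 1869, 10859 and 8725 UMIs per cell. Fibroblasts had Cd274 at 7.10 CPM (1.46 to 20.7), 11.6 CPM (6.20 to 19.9) and 21.3 CPM (16.5 to 26.9) in Sham, MI and MI-E and Lgals9 at 42.6 CPM (25.2 to 67.3), 85.1 CPM (68.9 to 104) and 93.7 CPM (83.5 to 105), over 51, 66 and 142 cells.

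The 32 ILC2-like cells of Sham had 6 UMIs of Pdcd1, 5 of Pdcd1lg2 and 4 of Cd274.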
